A study of Mus musculus with 2 samples.

Results

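A set of 3 long non-coding RNAs (lncRNAs) of mouse liver whose exons lie on the opposite strand to exons of growth response genes were described: Gm28592 opposite Phlda1, Gm26669 opposite Zfp36l1 and Gm26714 opposite Tcim. They were taken by their Ensembl identifiers from the deposited table of known lncRNAs and are 3 of its 614 entries, or 3 of 886 lncRNAs in all when a second table of 272 lncRNAs with numbers in place of names is counted. All 3 were proposed with their values in these libraries in view, so their ratios between the diets are a description and not a test. The libraries were made from total RNA of liver from wild-type C57BL/6 mice aged 27 weeks after birth, and 1 of them came from a high fat diet (60% fat, 23 weeks) and 1 from a normal diet. The labels name the cell type as hepatocyte, although the extraction text describes removed and frozen liver, and they say nothing on pooling of animals. With 1 library per diet there was no replicate error, so every interval given here covers the counting of read pairs only.

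Growth response genes are switched on quickly when cells meet growth factors, hormones or stress, and many of them encode short-lived regulators of transcription, signalling or RNA stability. Phlda1 encodes a pleckstrin homology-like protein that is induced by growth factors and by endoplasmic reticulum stress and has been tied to cell survival and to lipid handling in liver. Zfp36l1 encodes a zinc finger protein that binds AU-rich elements in the untranslated ends of messenger RNAs and speeds their decay, and in hepatocytes it acts on the messenger RNA of the bile acid enzyme Cyp7a1. Tcim encodes a small protein that binds the beta-catenin antagonist Chibby and favours Wnt signalling. An antisense lncRNA is read from the other DNA strand of such a gene, so its sequence is the reverse complement of the messenger RNA wherever exons of both overlap.

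The 3 lncRNAs faced different parts of their coding genes in the GENCODE M21 annotation (GRCm38). Gm28592 (ENSMUSG00000100113, chr10:111506575-111507662, minus strand, biotype lincRNA) has 2 exons with 741 bases, of which 698 (94.2%) lie opposite coding sequence of Phlda1, 29 opposite its stop codon and 3′ UTR and 14 opposite an intron. Among the 217 known lncRNAs that share at least 50 bases with coding exons on the opposite strand, this share of coding sequence ranked 2, and the median of the 217 was 4.79%. Gm28592 starts 1376 bases downstream of the Phlda1 start and ends 289 bases downstream of it, so the whole gene lies inside its coding neighbour. Its span covers 1045 of the 1215 coding bases of Phlda1 (86.0%), and 347 of these lie in the single intron of Gm28592.

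Gm26669 (ENSMUSG00000097417, chr12:80108034-80113000, plus strand, biotype lincRNA) has 2 exons with 1808 bases, of which 1672 (92.5%) lie opposite exons of Zfp36l1. Its first exon of 1490 bases (82.4% of the exon length) lies wholly opposite the 3′ UTR of the longest coding isoform of Zfp36l1. The second exon of 318 bases lies opposite 125 bases of the 5′ UTR, the first 57 coding bases and 136 bases of intron. With the coding sequence of all Zfp36l1 isoforms counted, 220 exon bases of Gm26669 (12.2%) lie opposite it, 163 of them in the first exon. Gm26669 ends 13 bases downstream of the Zfp36l1 start, so it spans the coding gene nearly from end to end. Gm26714 (ENSMUSG00000097654, chr8:24422404-24440008, plus strand, biotype antisense) has 3 exons with 1655 bases and starts 16580 bases downstream of the Tcim start. Of its exons only exon 3 meets Tcim, with 249 bases opposite coding sequence and 88 opposite the 5′ UTR. The other 1318 exon bases of Gm26714 (79.6%) lie outside Tcim, and 249 bases are 78.3% of the 318 coding bases of that short gene.

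**Figure D1:**
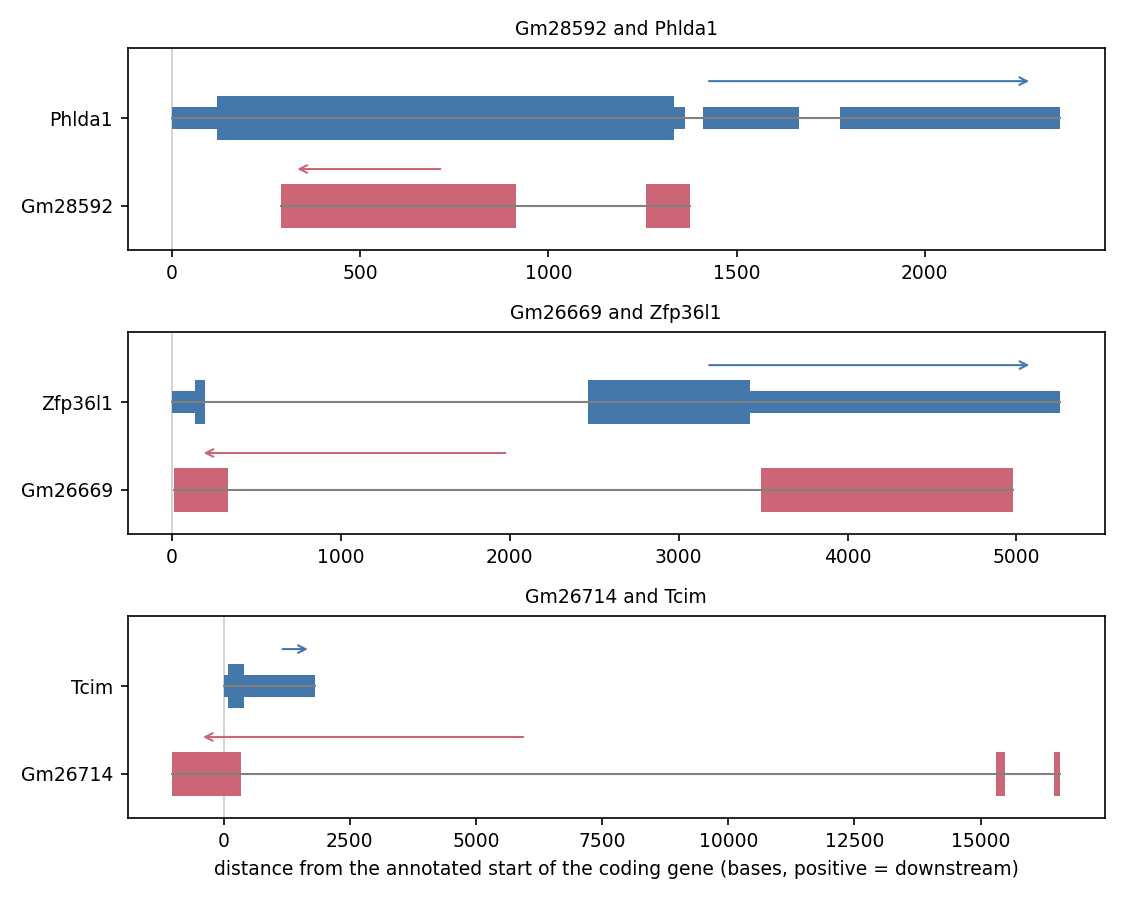
Maps of the 3 loci, with the distance from the annotated start of the coding gene in bases on the x axis. Boxes are exons (for coding genes all isoforms together, taller where the longest isoform is coding), lines are introns and arrows give the direction of transcription. Gm28592 sits inside Phlda1, mostly opposite its coding sequence, Gm26669 mirrors the ends of Zfp36l1, and Gm26714 meets only the first part of Tcim.

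Stretches that lie opposite coding sequence show a part of what the counted reads could share with the messenger RNAs. For Gm26669 only 57 bases are printed, of 1672 that lie opposite Zfp36l1 exons. All sequences are given 5′ to 3′ on the strand of the lncRNA, from GENCODE M21 transcripts. For Gm28592 the part of exon 1 opposite coding sequence (chr10:111507546-111507619) and the first 300 bases of exon 2 (chr10:111506899-111507198) are printed, with capitals at a run of 8 CTG and TTG triplets. This run is the reverse complement of 8 glutamine codons of Phlda1, in frame. Between them are printed the first and last 20 bases of the intron (chr10:111507526-111507545 and chr10:111507199-111507218), read from the Phlda1 transcript, with capitals at the end dinucleotides. The intron opens with GT and closes with AG on the strand of Gm28592, the usual splice dinucleotides. For Gm26669 (chr12:80112819-80112875) and Gm26714 (chr8:24438648-24438896) the capitals mark CAT, the reverse complement of the start codon of Zfp36l1 and of Tcim.
Gm28592 exon 1: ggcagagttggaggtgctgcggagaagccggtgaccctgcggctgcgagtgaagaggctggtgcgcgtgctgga
Gm28592 intron start: GTtggtacgggtgagggtga
Gm28592 intron end: acgtgatctcggcgttccAG
Gm28592 exon 2: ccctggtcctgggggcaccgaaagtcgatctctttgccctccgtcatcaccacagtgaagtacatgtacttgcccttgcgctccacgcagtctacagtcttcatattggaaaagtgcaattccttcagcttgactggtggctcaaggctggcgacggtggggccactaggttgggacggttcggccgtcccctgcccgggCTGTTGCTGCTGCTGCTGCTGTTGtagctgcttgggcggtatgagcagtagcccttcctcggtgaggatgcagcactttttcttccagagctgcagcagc
Gm26669 exon 2: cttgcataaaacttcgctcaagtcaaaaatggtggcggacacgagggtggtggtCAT
Gm26714 exon 3: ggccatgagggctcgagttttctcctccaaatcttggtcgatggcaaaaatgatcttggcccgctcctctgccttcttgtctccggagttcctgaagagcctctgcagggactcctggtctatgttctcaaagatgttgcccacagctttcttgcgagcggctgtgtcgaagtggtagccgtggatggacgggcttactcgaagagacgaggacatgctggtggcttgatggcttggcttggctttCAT

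Exons of Gm26669 and Gm26714 thus run across the start codons of their coding genes, whereas Gm28592 ends before reaching that of Phlda1. No stretch of 50 bases in any of the 3 was found in a transcript of a gene other than its own coding partner, on either strand. The GC content of Gm28592 was 65.0%, that of Gm26669 42.7% and that of Gm26714 45.7%, against a median of 47.8% over known lncRNAs. The Gm28592 and Gm26669 transcript models carry the annotation's support level 5, its weakest, and Gm26714 carries level 1, its strongest.

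Gm28592 was counted with 2712 reads on the high fat diet and 702 on the normal diet. Scaled to 1000000 reads of the known table (CPM), these were 14013 (95% exact binomial interval 13282 to 14773) and 2899 (2604 to 3218). The high fat diet value was 4.83-fold that of the normal diet (4.30 to 5.45). It was thereby the ninth entry of the table by level in the high fat diet library and rank 54 in the normal diet library. Its difference of 11114 CPM ranked 3 among the rises of all known lncRNAs. In the order of levels the neighbours in the high fat diet library were Gm17300 (2732 reads) and Gm28268 (2646 reads), and in the normal diet library Gm17529 (716 reads) and Gm26508 (690 reads). The intervals of Gm28592 overlapped those of both neighbours in each library.

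Gm26669 was the most abundant of the 3, with 5766 reads on the high fat diet and 5258 on the normal diet, out of totals of 193538 and 242194. The corresponding CPM were 29793 (28730 to 30883) and 21710 (20896 to 22546). The high fat diet value was 1.37-fold that of the normal diet (1.30 to 1.45), so the difference stayed under 2-fold. Gm26669 ranked 6 by level on the high fat diet and 8 on the normal diet. It kept apart from its neighbours in the order, with intervals that did not meet those of Gm26697 and Gm26917 in the high fat diet library or of Gm26917 and Gm17300 in the normal diet library.

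Gm26714 was the least abundant, with 240 reads on the high fat diet and 124 on the normal diet. These were 1240 CPM (1028 to 1483) and 512 CPM (393 to 656). The high fat diet value was 2.42-fold that of the normal diet, and the interval of 1.77 to 3.35 included values under 2-fold. Gm26714 ranked 103 and 187 by level. Its neighbours by level, Gm26563 and Gm14149 in the high fat diet library and Gm15628 and Gm26522 in the normal diet library, had overlapping intervals, and Gm26563 (240 reads) and Gm15628 (124 reads) had the same number of reads as Gm26714 there.

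Together the 3 lncRNAs held 4.50% (4.37 to 4.64, Clopper-Pearson) of the reads of the known table on the high fat diet and 2.51% (2.42 to 2.60) on the normal diet. Per kilobase of exon, the order of the most abundant pair was not the same in the libraries. Gm28592 had 18911 CPM per kb (17924 to 19937) in the high fat diet library against 16478 (15891 to 17081) for Gm26669. In the normal diet library Gm28592 had 3912 CPM per kb (3514 to 4342) and Gm26669 had 12008 (11558 to 12470). Thus Gm28592 stood 1.15-fold above Gm26669 per exon length in one library, and Gm26669 stood 3.07-fold above Gm28592 in the other. Gm26714 lay below both in each library, at 749 and 309 CPM per kb. Values per kb rest on the exon lengths of GENCODE M21, and the annotation used for counting is not given. The intervals do not cover that.

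**Figure D2:**
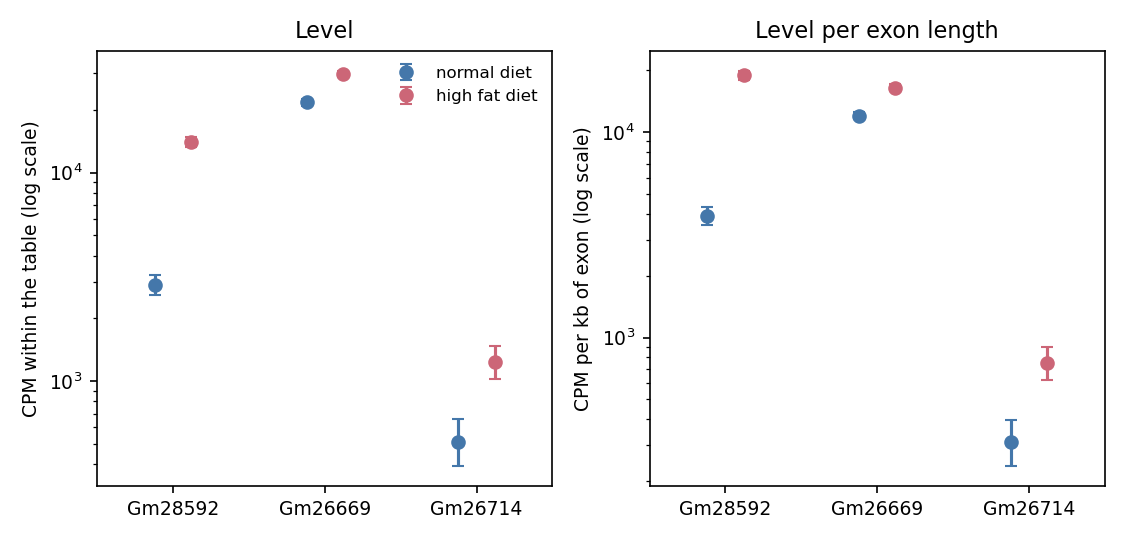
Levels of the 3 lncRNAs in the normal diet (blue) and high fat diet (red) library, in CPM of the known table (left) and CPM per kb of exon (right), both on log axes. Points are single libraries and bars are 95% exact binomial intervals of counting. All 3 were chosen with their values in view and were higher in the high fat diet library. The median log2 ratio over the 364 known lncRNAs with at least 20 reads was -0.01. Per kb of GENCODE M21 exon, Gm28592 lay above Gm26669 only in the high fat diet library, at 18911 against 16478.

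Ratios of reads between members of the same library do not depend on how the libraries were scaled. Gm28592 had 0.470 reads per read of Gm26669 on the high fat diet and 0.134 on the normal diet, a ratio of these ratios of 3.52 (exact conditional 95% interval 3.09 to 4.02). Gm28592 had 11.3 reads per read of Gm26714 against 5.66, a ratio of 1.996 (1.41 to 2.80). Gm26714 had 0.0416 reads per read of Gm26669 against 0.0236, a ratio of 1.76 (1.28 to 2.45). These ratios restate the values by which the members were chosen and test nothing. Gm28592 differed most between the libraries, then Gm26714, then Gm26669.

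Calls needed a CPM ratio of 2-fold or more, in either direction, and 20 or more reads in the library with the higher level. Gm28592 and Gm26714 were called higher and Gm26669 was not called. Of 364 known lncRNAs that reached the read minimum, 28 (7.69%) were called higher and 30 (8.24%) lower. As the members were chosen with these ratios known, nothing is read from 2 of 3. The log2 ratios were 2.27 for Gm28592 (2.10 to 2.45), 1.28 for Gm26714 (0.82 to 1.74) and 0.46 for Gm26669 (0.38 to 0.53), at ranks 5, 24 and 74 of 364. Just inside the threshold for higher calls was Gm26663 at 1.01 (58 reads against 36), and just outside E130102H24Rik at 0.99 (38 against 24). The authors' deposited table marks Gm28592 and Gm26714 as significant and Gm26669 as not. The deposited adjusted p-value of Gm26669 was smaller than that of Gm26714, so its missing mark does not rest on that p-value. With 1 library per diet, neither the marks nor these p-values are read as results on the diets. Of all 614 known lncRNAs, 20 (3.26%) are marked as significant and higher.

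The 177 lncRNAs with at least 20 reads that lie opposite coding exons had a median log2 ratio of -0.00, and 11 were called higher (6.21%) and 9 lower (5.08%). Without the 3 members, 9 of 174 were called higher and 9 lower (5.17% each). Within the 177, as a description of values that chose the members, Gm28592 ranked 1, Gm26714 ranked 9 and Gm26669 ranked 32. Per kilobase the 3 ranked 4, 66 and 5 (Gm28592, Gm26714, Gm26669) of the 217 in this class in the high fat diet library and 14, 112 and 5 in the normal diet library.

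**Figure D3:**
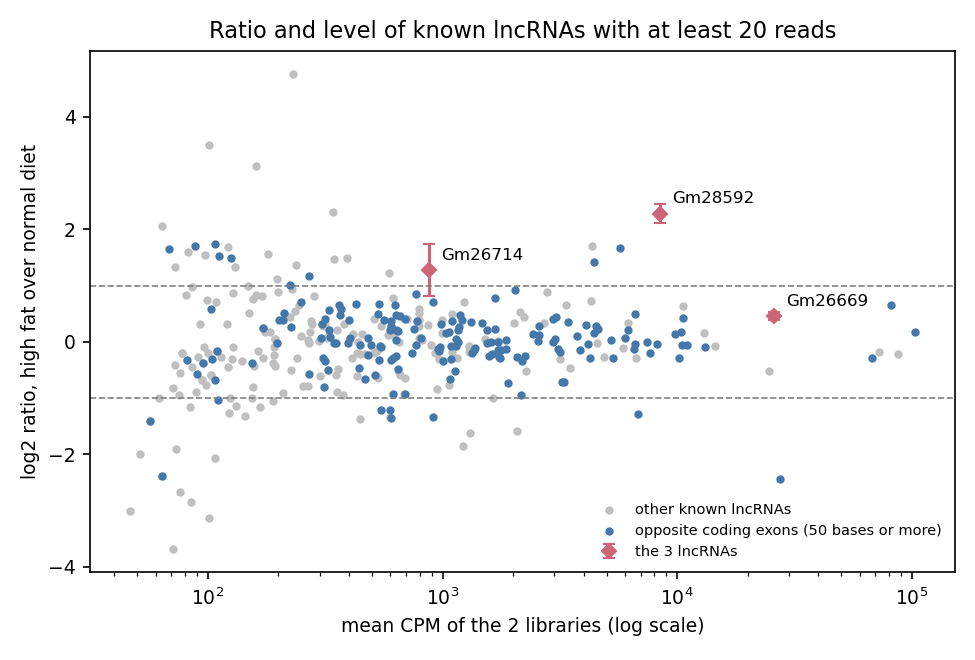
Log2 ratio of the high fat diet over the normal diet library (y axis) against the mean CPM of both libraries (x axis, log scale) for the 364 known lncRNAs that reached 20 reads in at least 1 library. Blue points lie opposite coding exons by at least 50 bases, red diamonds with 95% counting intervals are Gm28592, Gm26669 and Gm26714, and dashed lines mark 2-fold. Gm28592 lies at 2.27 and Gm26714 at 1.28, above the upper dashed line, and Gm26669 at 0.46 lies below it.

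Reads that fall where exons of both strands overlap can be assigned to the lncRNA only if the strand is known, and the sources used here do not give the strand setting with which reads were counted. This touches nearly all exon bases of Gm28592 (98.1%) and Gm26669 (92.5%) and 20.4% of those of Gm26714. For these stretches, reads of the lncRNA and reads of Phlda1, Zfp36l1 or Tcim cannot be told apart, and coding genes were not analysed here. In such bulk RNA, a change in the number of cells of a type and a change of RNA per cell also cannot be told apart. Of 14 lncRNAs listed for cells other than hepatocytes, whose specificity to a cell type was not checked, 3 were in the table (Gm12840, Mir155hg and Pvt1). Their summed levels were 372 CPM on the high fat diet and 380 on the normal diet. They did not go one way, with 46 reads against 88 for Gm12840, 18 against 2 for Pvt1 and 8 against 2 for Mir155hg. Pvt1 and Mir155hg were under the read minimum and could not be called, and Gm12840 was not called. All 4 of the lncRNAs listed for hepatocytes were in the table, at 703 and 851 CPM summed. Gm10804 had 66 reads against 126 and C730036E19Rik 60 in each library, neither called, and 1810008I18Rik and Platr4 were under the read minimum. The part of the cell makeup in the ratios was not tested.

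To set the 3 beside other loci of this kind, lncRNAs opposite exons of 87 growth response genes were collected from the known table. There were 6, the 3 described above and 3 others, all with at least 20 reads. Of the 6, 3 were called higher, 1 lower and 2 were not called, beside 7.69% higher and 8.24% lower over all 364, and their median log2 ratio was 0.87 against -0.01 over the same 364. The members were chosen on their values, so their part in this count and median supports nothing. The 3 others, of which the values were also known when the list was written, had a median of 0.20, with 1 called higher, 1 lower and 1 not called. A330033J07Rik lies opposite Id4, an inhibitor of helix-loop-helix transcription factors. It had 26 reads against 10 and was called higher at a log2 ratio of 1.70 (0.12 to 3.54). An exact binomial test of read pairs (a comparison of these libraries, not of the diets) does not keep this call once adjusted for multiple testing. Gm26885, opposite Pim1, a growth factor-induced kinase gene, had 320 reads against 348 and was not called (0.20, -0.12 to 0.52). Irs2, which encodes an adaptor protein of insulin signalling, faces 9530052E02Rik, which had 66 reads against 210 and was called lower (-1.35, -1.96 to -0.77). The limit set by the unknown strand holds for these 3 as well, but over a smaller part of their exons than for the members. A330033J07Rik shares 82 of its 2816 exon bases with Id4 exons and Gm26885 shares 488 of 6618 with Pim1. For 9530052E02Rik it is 162 of 1849 with Irs2.

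With starts up to 1000 bases apart on opposite strands also allowed, 5730420D15Rik was added, which starts 195 bases from Socs2, a gene of growth hormone feedback. It had 10 reads against 2, under the read minimum, and its interval of -0.51 to 8.21 included 0. The family lists added no further locus. No lncRNA of the table lay opposite another ZFP36 or PHLDA family gene, and of 14 genes of Wnt and YAP signalling only Tcim had one. Per kilobase, the 3 others lay between 47.7 and 249.8 CPM per kb in the high fat diet library, below all 3 members (749 and more), and in the normal diet library 9530052E02Rik (469) lay above Gm26714 (309).

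**Figure D4:**
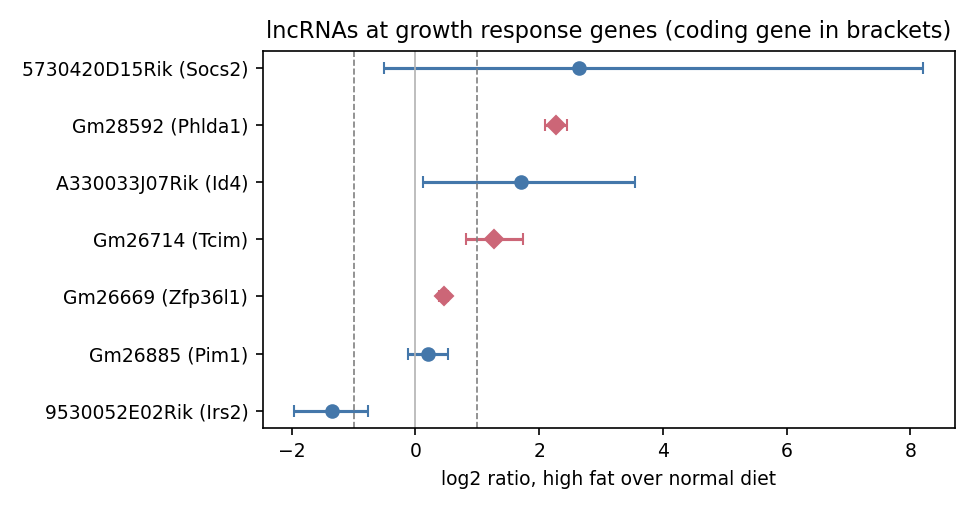
Log2 ratio of the high fat diet over the normal diet library (x axis) for the 7 known lncRNAs at growth response genes, with the coding gene in brackets. Bars are 95% exact counting intervals, red diamonds are the 3 members and dashed lines mark 2-fold. The ratios run from -1.35 (9530052E02Rik) to 2.65 (5730420D15Rik), with the widest interval for the latter, which had 12 reads in all.

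The lncRNAs nearest to each member in log2 ratio, among those with at least 20 reads, were compared over the 2 libraries only, so likeness in this measure is weak. Nearest to Gm28592 were 4933440J02Rik (2.30), Lsmem2 (2.06) and Gm26782 (1.74). Nearest to Gm26669 were Gm2061 (0.47), 2310001H17Rik (0.44) and Gm26896 (0.47). Nearest to Gm26714 were 4632415L05Rik and Gm26609 (both 1.32) and Gm11261 (1.22). Each of these had fewer reads than the member it resembles, and Gm11261, with 160 reads on the high fat diet against 240 for Gm26714, came closest.

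Within 100 kb of a member, the known table listed 2 lncRNAs. The first, 4933440J02Rik, is also the entry nearest to Gm28592 in ratio. It lies on the same strand of chromosome 10 with a gap of 79.1 kb, overlaps no coding exon and had 110 reads against 28, a 4.92-fold higher value (2.70 to 9.57) beside 4.83-fold for Gm28592. The second, 2310015A10Rik, lies 7.5 kb from Gm26669 on the other strand of chromosome 12. It had 336 reads against 418 and a log2 ratio of 0.01 (-0.29 to 0.31), whose interval did not meet that of Gm26669 (0.38 to 0.53). No known lncRNA other than Gm26714 was listed within 100 kb of Gm26714. No entry of the numbered table had the read number of a member in either library.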

How the data were processed

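RNA of 2 liver libraries, 1 per diet, was sequenced. The submitters' processing notes name HISAT2, HTSeq, DESeq and build mm8. Tool versions and roles, the annotation and the strandedness: not given in the sources used here. CPM values were deposited by the authors, scaled to the reads of each table. The authors' fold change divides the high fat diet value by the normal diet value (a ratio) and comes with its log2. Deposited p-values and adjusted p-values were not used, other than the authors' mark of significance and the order of Gm26669 and Gm26714.

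Dividing each CPM by its column's smallest value gave whole reads for 100% of 1228 values in the known table, to within 1e-06. A value of 1 read (7 and 1 entries) was taken as 0, and all other numbers were even, so exact intervals used pairs of 2 reads. Ratios use table totals of 193538 and 242194 reads. Coordinates and overlaps come from GENCODE M21 (GRCm38) by Ensembl identifier, found for 606 of 614 entries, and were not converted between builds. No count model was run, since 1 library per diet leaves no residual error. The exact binomial test of read pairs was an added alternative and compares the libraries only. With adjustment for multiple testing at 0.05 and the 2-fold and 20-read limits kept, it called 15 higher and 16 lower. Intervals and calls were checked on simulated read pairs with counting error only, the error the intervals assume, so this checks the computation alone. Variation between animals was not simulated.

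The members, lists and tests were chosen with earlier results of these data known. Named lncRNAs are the members, those opposite listed growth response genes, the 3 nearest in ratio, neighbours in level or within 100 kb, marker lncRNAs, and those next to the threshold. Alternatives changed scaling (edgeR 4.0.16 for TMM), pseudocount, read minimum and fold. Python 3.11.15, scipy 1.17.1 and R 4.3.3 were used.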

Additional observations from a re-analysis of the deposited data

How the results depend on the processing

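The log2 ratio of each member was recomputed under 8 alternatives of scaling, pseudocount and interval. It ran from 2.23 to 2.37 for Gm28592, from 1.23 to 1.37 for Gm26714 and from 0.41 to 0.55 for Gm26669, so each kept its direction and its side of 2-fold. Little else was possible, since the other interval cannot move a ratio and each scaling moved all ratios by the same amount, at most 0.094 in log2. Leaving lncRNAs that overlap coding exons out of the totals gave 0.55 for Gm26669, above its counting interval. Leaving out the 5 most abundant lncRNAs raised the shares by construction, to 2.41% and 0.488% for Gm28592, 5.13% and 3.66% for Gm26669 and 0.214% and 0.0862% for Gm26714 (high fat diet and normal diet).

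Known lncRNAs, 28 higher and 30 lower, numbered 58 and 66 at 1.5-fold, 6 and 9 at 4-fold, 8 and 11 at a minimum of 100 reads, 78 and 64 with no read minimum, and 15 and 16 by the exact binomial test. Without lncRNAs overlapping coding exons 17 were higher and 21 lower. These settings change by construction which lncRNAs can be called. Median-of-ratios scaling gave 27 higher and 34 lower and a pseudocount of 5 reads 27 and 22. The last 2 and the interval excluding 0 (25 and 23) stayed within 1.5 times. The 4-fold limit ends the call of Gm26714. The binomial test, the interval rule, the totals without the 3 members and the count without overlapping lncRNAs were chosen after the data were seen.

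No paired analysis was possible because there was a single library for each diet, and no library was left out for that reason. Depth limits Gm26714 most, with 120 and 62 read pairs.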

Other observations

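Gm28592 and 4933440J02Rik were among 45 pairs of known lncRNAs within 100 kb of each other with at least 20 reads. Their log2 ratios differed by 0.02, the second smallest difference of the 45, whose median was 0.54 against 0.65 over all 64620 pairs. The pair was picked out by its ratio and position together, and 4933440J02Rik had only 110 and 28 reads, so this is a value to look at again and not a test.

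The RefSeq promoter windows (GRCm38.p6) include the coding gene Zfp36l1 but none of the 3 members, whose own starts were not searched. Gm26669 starts 4979 bases downstream of the Zfp36l1 start, so this window is not that of Gm26669. In the 250 bases before the Zfp36l1 start, the letters of an AP-1 site (TGANTCA, either strand) occur once, 129 bases before it. Of 32851 windows, 6.75% hold them. Those of a TATA box (TATAAA) occur once, 29 bases before the start, and 12.4% of windows hold them. The letters of a cAMP response element (TGACGTCA), a TEAD site (GGAATG) and an E-box (CACGTG) do not occur in this window, against 1.55%, 12.6% and 6.02% of windows that hold them. The letters ATTTA, searched on both strands as for the other motifs, occur 3 times, 81, 78 and 27 bases before the start. The matches at 81 and 78 overlap each other, and that at 27 overlaps the TATA box letters. In 31.5% of windows ATTTA occurs at least once.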
